A study of Mus musculus with 6 samples.

Results

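Hox genes of the Hoxa and Hoxb clusters were examined in hematopoietic stem cells (HSCs) with and without the lymphotoxin β receptor (LTβR, encoded by Ltbr). The 10 genes Hoxa2, Hoxa3, Hoxa5, Hoxa7, Hoxa10, Hoxb3, Hoxb4, Hoxb5, Hoxb6 and Hoxb7 were taken by their symbols from 26216 gene names, 5 from each cluster. Of these, 9 were among the 13108 gene names in the upper 50% by mean signal, which were tested, and Hoxb7 lay below that filter. The rule goes by symbol.

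RNA-seq was performed on LT/ST-HSCs sorted from the bone marrow of mixed chimeras 6 weeks after transplantation, with 3 samples of Ltbr-/- cells and 3 samples of Ly5.1 cells. Both kinds of cells were sorted from such chimeras, lethally irradiated Ly5.1/Ly5.2 mice that had received lineage-negative, Sca-1+, c-kit+ cells (LSKs) of both donors, so all cells of both groups had been transplanted. The Ltbr-/- donors carried a deletion in both Ltbr alleles in every cell and the CD45.2 allele, and were 10 to 13 weeks old. Ly5.1 donors carried intact Ltbr and the CD45.1 allele and were 7 to 13 weeks old. Loss of Ltbr, the congenic background and donor age therefore cannot be told apart. The samples were biological replicates pooled from chimeras, and the HSC gate was Lin-, Annexin-V-, Sca-1+, c-kit+, CD150+ and CD48-.

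Hox genes encode transcription factors that bind DNA through a homeodomain and pattern the body axis of the embryo. They lie in clusters, and the order of the genes along the chromosome matches the order in which they are used along the axis. In adult bone marrow, genes of the Hoxa and Hoxb clusters are active in stem and progenitor cells and are turned down as cells mature. Hox proteins act together with cofactors of the TALE class (Pbx, Meis and Pknox), MLL-menin complexes keep the clusters active and Polycomb complexes keep them silent.

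In the genome build GRCm38 with the GENCODE M21 annotation, the Hoxa cluster covers 105.3 kb of chromosome 6 (52155590 to 52260880), and the Hoxa members are on the minus strand. The Hoxb cluster covers 173.9 kb of chromosome 11 (96194316 to 96368256), and the Hoxb members are on the plus strand. Ltbr is also on chromosome 6, 73.05 Mb from the Hoxa cluster. To show how alike the members are and whether the reads could tell them apart, the coding bases of residues 41 to 60 of the homeodomain are printed here for 5 members, Hoxa2, Hoxa5, Hoxa10, Hoxb6 and Hoxb7, 5′ to 3′ on the coding strand. They include the helix that contacts DNA, and capitals mark the 30 of 60 bases that are identical in these 5 genes.
Hoxa2: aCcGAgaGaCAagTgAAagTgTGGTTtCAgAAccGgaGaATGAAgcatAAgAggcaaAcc
Hoxa5: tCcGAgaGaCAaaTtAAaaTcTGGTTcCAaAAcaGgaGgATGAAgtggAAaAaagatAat
Hoxa10: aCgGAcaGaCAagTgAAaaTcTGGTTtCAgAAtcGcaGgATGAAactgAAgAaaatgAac
Hoxb6: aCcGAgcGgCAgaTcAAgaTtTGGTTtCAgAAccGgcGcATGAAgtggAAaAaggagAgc
Hoxb7: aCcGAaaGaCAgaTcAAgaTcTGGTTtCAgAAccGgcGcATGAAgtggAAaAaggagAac
These bases lie in the last exon of each gene's longest protein-coding transcript. Their positions are chr6:52163411-52163470 for Hoxa2, chr6:52202632-52202691 for Hoxa5 and chr6:52232554-52232613 for Hoxa10, all on the minus strand. On the plus strand they are chr11:96300809-96300868 for Hoxb6 and chr11:96289505-96289564 for Hoxb7.

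Over the whole homeobox of 180 bases, identity between 2 of these 5 genes ranged from 57.2% (Hoxa2 and Hoxb7) to 88.9% (Hoxb6 and Hoxb7). The longest identical stretch within the homeobox of any pair of them was 37 bases, between Hoxb6 and Hoxb7. It is shorter than a read of 76 bases. Over all 10 members, none of the 76-base windows of the longest protein-coding transcripts occurred in the transcript of another member. Sharing with genes other than members was found. Hoxa2 and Hoxa3 share 11.41% and 7.39% of their windows with Gm28308, a readthrough gene annotated on the same strand. On the opposite strand, Hoxb3os covers 67.58% of the windows of Hoxb3, Hoxaas3 covers 26.06% of those of Hoxa7 and Hoxaas2 covers 17.01% of those of Hoxa3. Hoxb5os covers 1.37% of those of Hoxb5. The kit used keeps the strand, but whether strand was used in the counting is not given in the sources used here, so the values of these 5 genes are uncertain by the reads of their partner genes. No such window was found for Hoxa5, Hoxa10, Hoxb4, Hoxb6 or Hoxb7, although Hoxa5 and Hoxb6 lie within longer annotated genes.

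The labels were checked with Ltbr. Its signal was 24.2, 26.4 and 23.1 in the Ltbr-/- samples and 564, 549 and 522 in the Ly5.1 samples, a log2 difference of -4.47 ± 0.08 (SE). Markers of the gate were present in both groups. Slamf1 (CD150) had a mean log2 signal of 8.04 in Ltbr-/- and 8.22 in Ly5.1 cells, and Cd48, whose product was gated out, one of 4.65 and 4.63. Of 10 HSC markers, Ly6a (log2 difference -0.39) and Cd34 (-0.31) fell in Ltbr-/- cells. None of the 10 had a difference above 0, and their median was -0.17. Their summed signal was 13584 to 13943 in Ltbr-/- and 15512 to 15927 in Ly5.1 samples. Cd34 is counted here although the study defines LT-HSCs as CD34- and ST-HSCs as CD34+. Of 3 markers of multipotent progenitors Flt3 fell (-0.28), while Dntt (0.16) and Cd48 (0.01) did not pass the test. All 7 neutrophil markers fell, led by Camp (-0.57), S100a9 (-0.47), S100a8 (-0.41) and Mpo (-0.39), with a summed signal of 34925 to 35635 in Ltbr-/- and 45355 to 49899 in Ly5.1 samples. Cd79a (0.62) rose among 5 B cell markers, and Cd79b (0.18) was higher in each Ltbr-/- sample without passing the test. Ms4a1 and Pax5, which define B cells, were near the lowest signal. Cma1 (1.32) and Cpa3 (0.56) rose among 5 mast cell and basophil markers, whereas Mcpt8, Fcer1a and Ms4a2 had differences of -0.22, -0.10 and -0.04 that did not pass the test. Emr1 (0.83) and Cd68 (0.28) rose among 4 monocyte and macrophage markers, whereas Csf1r (-0.27) and Ly6c2 (-0.18) were lower in each Ltbr-/- sample without passing the test. Of 4 T cell markers only Cd3g passed the filter, and neither it nor any of 4 erythroid markers passed the test. The highest of these were Cd3g and Cd4, with mean log2 signals under that of Cd48, and Car1 and Epor, with differences of -0.14 and 0.11. Of 4 megakaryocyte markers Itga2b (0.31) rose and Pf4 (-0.33) fell. Beside these counts, 14.8% of all tested genes had an adjusted p under 0.05 (limma), and 30.4% had groups without overlap. The neutrophil markers other than Ly6g lay in the highest of 10 bins of tested genes by mean signal. In that bin 41.7% of genes were called. In bulk samples, fewer cells of a type and less RNA per cell cannot be told apart. The calls of Flt3, Cd68 and Pf4 were lost on leaving out 1 sample, with adjusted p up to 0.179, 0.207 and 0.169, and that of Itga2b with quantile normalization (adjusted p = 0.904, limma). Of the neutrophil markers, Prtn3 and Ly6g also lost their calls with no filter on low values (adjusted p = 0.0630 and 0.115) and on leaving out a sample (up to 0.165 and 0.166).

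None of the 9 tested Hox genes passed the test between Ltbr-/- and Ly5.1 HSCs, and all differences were small. The comparison was made with limma on the log2 of the deposited signal, with Benjamini-Hochberg adjustment over all 13108 tested genes. Of the 9 members, 0 were higher and 0 were lower at an adjusted p under 0.05, beside 10.6% of all tested genes higher and 4.18% lower (14.8% in all). With a fold of at least 1.5 required as well, again 0 of 9 members and 2.78% of all tested genes were called. At an unadjusted p under 0.05 the count was also 0 of 9, beside 27.1% of all tested genes. Adjusted p-values of the members ranged from 0.185 to 0.984. The difference was above 0 for 4 members and below 0 for 5, and their median was -0.03, as compared with -0.01 over all tested genes. The 95% confidence intervals reached from -0.33 at the lowest to 0.23 at the highest, so on this scale each interval excluded a fold of 1.5 in either direction (0.585 on the log2 scale).

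**Figure D1:**
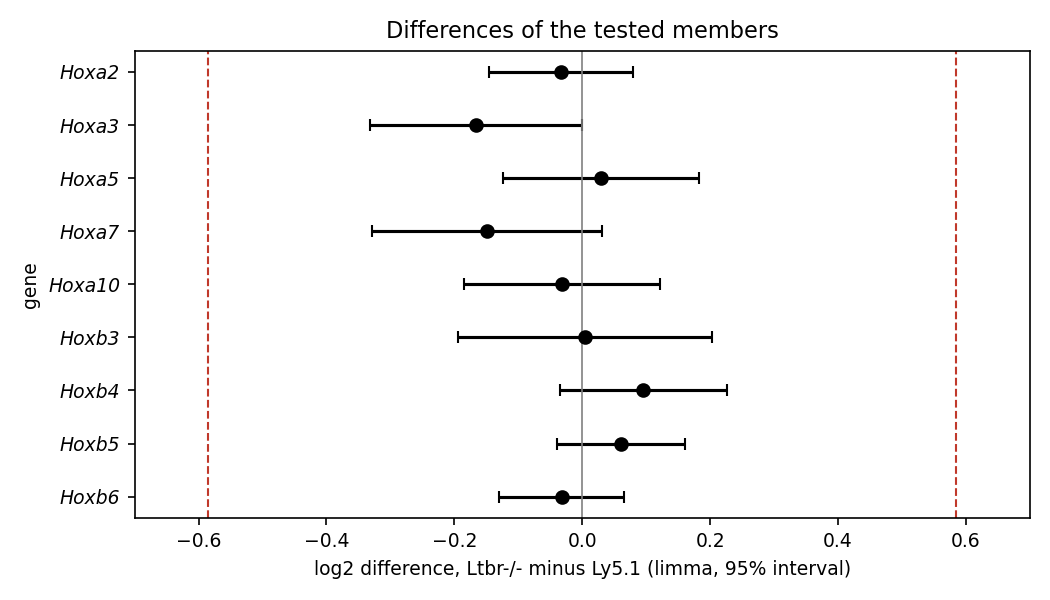
Log2 difference of signal, Ltbr-/- minus Ly5.1 (x axis), for each of the 9 tested Hox genes (y axis), with 95% confidence intervals from limma on 3 samples against 3. The dashed lines mark a fold of 1.5 (0.585) in either direction, and all 9 intervals lie between them, each including 0.

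Differences were smaller among weakly expressed genes in these data. The log2 of the deposited signal is taken to be a regularized log, a transform that pulls differences toward 0 where counts are low, and its part in this was not tested. The 9 members had mean log2 signals from 4.92 to 7.23. Among the 2960 tested genes in this range, 5.81% had an adjusted p under 0.05 and 0.101% also had a fold of at least 1.5. The median size of the difference was 0.06 in this range and 0.16 in the upper 25% of tested genes, and its 99th percentile was 0.34 and 1.01. A fold of 1.5 was thus seldom reached by any gene at the level of the Hox genes, and the intervals above describe the deposited values, not read counts.

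**Figure D2:**
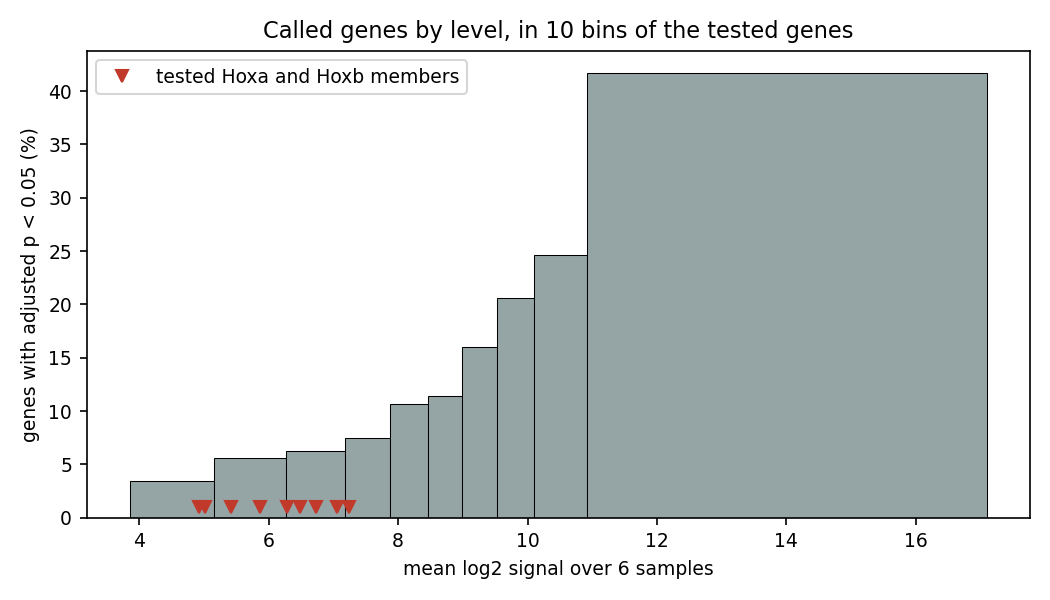
Percentage of genes with an adjusted p under 0.05 (y axis) in 10 bins of the 13108 tested genes ordered by mean log2 signal over the 6 samples (x axis, with bar width covering the range of each bin). The percentage climbs from 3.43 in the lowest bin to 41.7 in the highest, and triangles mark the 9 tested Hox genes, all in the lowest 4 bins.

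Of the Hoxa members, Hoxa7, which is active in myeloid progenitors and in MLL-rearranged leukemia, had the highest signal. It was 146, 139 and 144 in the Ltbr-/- samples and 164, 142 and 170 in the Ly5.1 samples. Replicate 2 of the Ly5.1 cells lay within the range of the Ltbr-/- samples, so the groups overlapped. The log2 difference was -0.15 ± 0.09 (SE, n = 3 per group), with a 95% interval from -0.33 to 0.03 and an adjusted p of 0.284 (limma).

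Hoxa3, which is required for the thymus and parathyroid glands, had signals of 99.9, 104 and 96.4 in Ltbr-/- and 101, 119 and 117 in Ly5.1 cells. Here Ly5.1 replicate 1 fell among the Ltbr-/- samples, and the other two Ly5.1 samples were above all of them. Its log2 difference of -0.17 ± 0.08 (95% interval -0.33 to 0.0003, limma adjusted p = 0.185) was the farthest from 0 among the members. The exact permutation test of the 6 values gave a two-sided p of 0.2. The smallest p this test can give with 3 samples against 3 is 0.1. Without Ly5.1 replicate 1 the difference was -0.24 with an adjusted p of 0.0705, the lowest for any member under any alternative, and the adjusted p over all alternatives reached 0.438.

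The other Hoxa members showed differences close to 0. Hoxa10, which drives expansion of myeloid progenitors when overexpressed, had 83.8, 92.9 and 88.4 in Ltbr-/- and 88.0, 94.6 and 88.4 in Ly5.1 cells. Its difference was -0.03 (95% interval -0.19 to 0.12). Hoxa5, known for its role in lung and axial patterning, had 81.3, 72.1 and 83.2 in Ltbr-/- and 74.8, 73.2 and 83.8 in Ly5.1 cells. The lowest and the highest of these 6 values were in different groups, and the difference was 0.03 (-0.12 to 0.18). Hoxa2, which patterns the hindbrain and the second branchial arch, had 42.2, 41.9 and 42.9 in Ltbr-/- and 44.1, 44.4 and 41.5 in Ly5.1 cells, a difference of -0.03 (-0.15 to 0.08). In all 3 genes the ranges of the groups overlapped.

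Hoxb4, which expands HSCs when overexpressed, was the only member whose groups did not overlap. Its signal was 60.7, 63.0 and 57.7 in Ltbr-/- and 57.2, 56.7 and 55.8 in Ly5.1 cells, so that each Ltbr-/- sample was above each Ly5.1 sample. The gap between the closest samples was small, and the log2 difference of 0.10 ± 0.06 (95% interval -0.03 to 0.23) did not pass the test (limma adjusted p = 0.350, exact permutation p = 0.1). Groups without overlap were found for 30.4% of all tested genes and for 19.0% of those in the level range of the members, beside 1 of 9 members.

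Hoxb3, the neighbor of Hoxb4, varied most among the members. It had 151, 131 and 118 in Ltbr-/- and 147, 141 and 112 in Ly5.1 cells, with the highest value in Ltbr-/- replicate 1 and the lowest in Ly5.1 replicate 3. The range over all 6 samples was 1.35-fold, and the difference between the groups was 0.0046 (95% interval -0.19 to 0.20). Its pooled SD within groups was 0.20 on the log2 scale, compared with 0.01 to 0.11 for the other members.

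Hoxb5, whose activity marks long-term HSCs in mice, had 32.9, 34.3 and 32.4 in Ltbr-/- and 33.1, 30.9 and 31.5 in Ly5.1 cells. The difference was 0.06 (95% interval -0.04 to 0.16). Hoxb6 had 28.9, 31.1 and 29.5 in Ltbr-/- and 30.1, 29.8 and 31.7 in Ly5.1 cells, a difference of -0.03 (-0.13 to 0.07). Both genes overlapped between the groups. Hoxb7, the member below the filter, was listed at 3.29 to 3.34 in Ltbr-/- and 3.32 to 3.38 in Ly5.1 cells, values that also overlapped. With no filter on low values its adjusted p was 0.619 (limma).

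**Figure D3:**
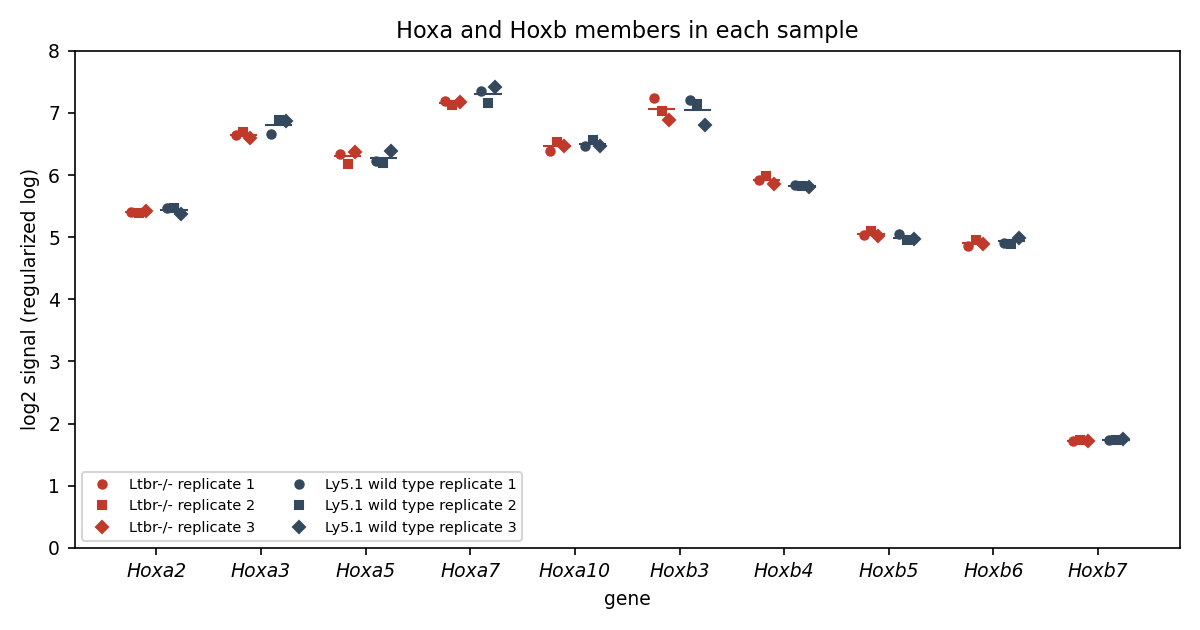
Log2 of the deposited signal (y axis) of the 10 Hox genes (x axis) in each of the 3 Ltbr-/- samples (red) and 3 Ly5.1 samples (dark blue), with symbols for the replicate number and a line at each group's mean. The groups overlap in 9 of the 10 genes, and in Hoxb4 the 3 Ltbr-/- samples lie just above the Ly5.1 samples.

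To compare levels between genes, the signal was divided by the length of the longest protein-coding transcript in kb. Hoxa7 was highest, with 71.1 ± 1.65 per kb in Ltbr-/- and 79.1 ± 7.34 in Ly5.1 cells (SD, n = 3). Hoxa3, Hoxb3 and Hoxa5 followed with 43.4 ± 3.80, 41.8 ± 5.95 and 41.2 ± 3.03 per kb in Ly5.1 cells. The ranges of these 3 genes over the 6 samples overlapped, so their order was not resolved. Then came Hoxa10 (35.2 ± 1.43), Hoxa2 (24.4 ± 0.89) and Hoxb4 (22.0 ± 0.28), of which Hoxa2 and Hoxb4 overlapped. The range of Hoxa10 (32.7 to 36.9) also overlapped that of Hoxb3 (35.0 to 47.4). Below them were Hoxb5 (16.8 ± 0.58), Hoxb6 (15.5 ± 0.51) and Hoxb7 (2.59 ± 0.03). All other neighbors in this order were separated in every sample. The order depends on the transcript model: per kb of all annotated exons together, Hoxa3 had 18.7 in Ly5.1 cells and stood below Hoxa2 and Hoxb4.

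**Figure D4:**
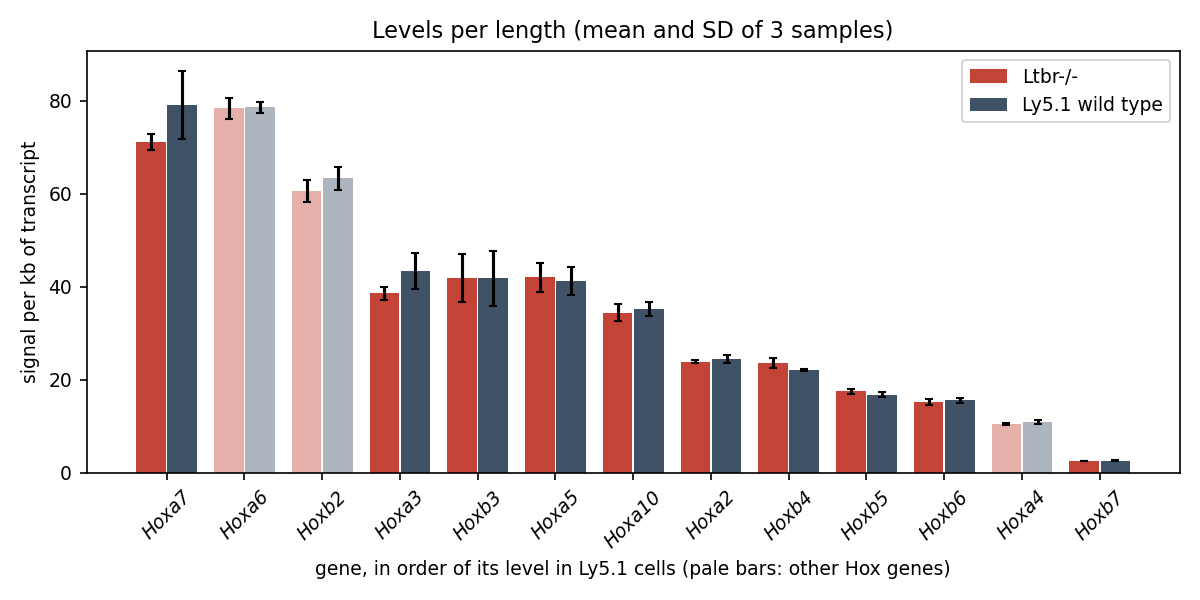
Signal per kb of the longest protein-coding transcript (y axis, bars from 0, mean and SD of 3 samples) for the 10 members and, in pale bars, Hoxa4, Hoxa6 and Hoxb2 (x axis, in order of the Ly5.1 level). Hoxa7 (79.1 in Ly5.1 cells) and Hoxa6 (78.6) are highest, and Hoxb7 (2.59) is lowest in both groups.

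The mean log2 signal of the 5 Hoxa members was 6.39, 6.38 and 6.41 in Ltbr-/- and 6.43, 6.45 and 6.50 in Ly5.1 samples. The Ltbr-/- samples were thus lower by a small margin, with a difference of group means of -0.07, to which Hoxa3 and Hoxa7 contributed most. Taken singly, 30.4% of all tested genes had groups without overlap. The mean of the 4 tested Hoxb members was 5.77, 5.77 and 5.66 in Ltbr-/- and 5.75, 5.70 and 5.64 in Ly5.1 samples, an overlapping pair of groups with a difference of 0.03. These means are descriptions without a test, and the summed signals of the neutrophil and HSC markers above were also lower in Ltbr-/- samples. Whether these markers had a part in the Hoxa mean was not tested.

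Of the 10 other Hoxa and Hoxb genes examined, 3 passed the filter and none of them passed the test. Hoxb2 had a log2 difference of -0.06 (95% interval -0.22 to 0.10) and Hoxa6 of -0.0046 (-0.14 to 0.13). Hoxa4, with 16.3 to 16.9 in Ltbr-/- and 16.8 to 18.1 in Ly5.1 samples, had a difference of -0.05 (-0.13 to 0.02). The genes at the ends of the clusters, Hoxa11, Hoxa13, Hoxb1 and Hoxb13, were listed at 1 in every sample. Below the filter, Hoxb8 had at most 9.05 in Ltbr-/- and 9.06 to 9.34 in Ly5.1 samples, and Hoxb9 had 6.21 in each Ltbr-/- sample and 6.24 to 6.77 in Ly5.1 samples. Both were lower in each Ltbr-/- sample by margins that were small beside their level, and neither entered the test. Among the genes that did, 30.4% had groups without overlap. Of the 18 genes of the Hoxc and Hoxd clusters, 14 were listed at 1 throughout and none passed the filter. The highest were Hoxc6, which reached 6.46, and Hoxd10, with a mean log2 signal of 0.52 in Ltbr-/- cells. Noncoding genes of the clusters were likewise low, with 6 of the 9 that were listed at 1 in every sample, among them Mir10a, and with none past the filter. The highest was Gm15051, listed under a synonym of Hotairm1, with a mean log2 signal of 3.41 in Ltbr-/- and 3.42 in Ly5.1 cells, followed by Mir196b with 1.61 and 1.63.

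Among the partners of Hox proteins, 1 of the 5 tested TALE cofactor genes reported here fell in Ltbr-/- cells and none rose. The median log2 difference was -0.01, and 14.8% of all tested genes were called in either direction. Meis1, a cofactor that cooperates with Hoxa genes in leukemia, had 2190, 2319 and 2234 in Ltbr-/- and 2693, 2603 and 2627 in Ly5.1 cells. All 3 Ltbr-/- samples were below the Ly5.1 samples, with a difference of -0.23 ± 0.08 (limma adjusted p = 0.0381) that did not reach a fold of 1.5. The mean log2 signal of Meis1 lay in the highest of the 10 bins of tested genes, where 41.7% of genes were called. The call of Meis1 was lost with no filter on low values (adjusted p = 0.0572) and on leaving out each sample except Ly5.1 replicate 3 (adjusted p from 0.0481 to 0.125 on leaving out a sample). Pknox1 had a difference of -0.15 (adjusted p = 0.282), with each Ltbr-/- sample below each Ly5.1 sample, and Pbx2, Pbx3 and Pbx4 had differences of 0.04, 0.04 and -0.01. The neutrophil markers, Ly6a and Cd34 fell in the same samples, and their part in the values of Meis1 was not tested.

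Of the chromatin regulators that act on Hox clusters, 2 of 16 activators and 1 of 19 Polycomb and demethylase genes passed the test, beside 14.8% of all tested genes. That share is over all levels, and it ranged from 3.43% in the lowest to 41.7% in the highest of 10 bins of signal. Most genes of both lists had higher signals than the tested Hox members. Among 16 genes of MLL-menin complexes and related activators, Ash2l, a core subunit of the MLL complexes, rose by 0.35 ± 0.08 (adjusted p = 0.00141), from 1776 to 1824 in Ly5.1 samples to 2238 to 2397 in Ltbr-/- samples. Dot1l, the H3K79 methyltransferase, showed the opposite, with 1556 to 1829 in Ly5.1 and 1276 to 1404 in Ltbr-/- samples (-0.33 ± 0.09, adjusted p = 0.00548). The median difference of these 16 genes was -0.11. Menin itself (Men1) had a difference of 0.16 and Kmt2a, listed as Mll1, of -0.15, and neither passed the test. Among 19 Polycomb genes and H3K27 demethylases, Pcgf2, a subunit of the Polycomb repressive complex that ubiquitinates H2A, rose by 0.32 ± 0.10 (adjusted p = 0.0242). Its call was lost without Ltbr-/- replicate 3 or Ly5.1 replicate 1, with adjusted p up to 0.195. The median of the list was -0.07, and Ezh2, the H3K27 methyltransferase, had a difference of -0.07 (95% interval -0.24 to 0.09).

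Cdx1, Cdx2 and Cdx4, which activate Hox genes in the embryo, were listed at 1 in every sample. Rara, a receptor for retinoic acid, rose by 0.30 ± 0.10 (limma adjusted p = 0.0277), with 348, 346 and 357 in Ltbr-/- and 257, 277 and 320 in Ly5.1 cells. It was 1 of 5 tested genes in this list, beside 14.8% of all tested genes called, and the list median was 0.05. The call of Rara too was lost on leaving out each sample except Ly5.1 replicate 3 (limma adjusted p up to 0.157).

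Genes next to the clusters were described in the same way, with the 10 nearest tested non-Hox genes on either side. Of all tested genes, 14.8% passed the test (10.6% higher and 4.18% lower). Beside the Hoxa cluster, 1 of 20 did. This was Osbpl3, which rose by 0.36, and the median was -0.04 over distances up to 2.765 Mb. Beside the Hoxb cluster, 4 of 20 rose and 1 fell, with a median of 0.04 over distances up to 0.662 Mb. Snf8, an ESCRT subunit, rose by 0.43, Atp5g1, a subunit of the ATP synthase, by 0.40, Cdk5rap3 by 0.36 and Phospho1 by 0.31, and the heterochromatin protein gene Cbx1 fell by 0.30. On leaving out 1 sample, the calls of Cdk5rap3, Phospho1 and Cbx1 were lost in 1, 3 and 2 of 6 cases, with adjusted p up to 0.0523, 0.110 and 0.102. The tested Hoxb members between these genes had differences from -0.03 to 0.10. They lay in the lowest 4 bins of signal, where 3.43% to 7.48% of genes were called, beside 41.7% in the highest bin. The neighbors were not matched to them by level.

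The mean profile of the 9 tested members, each centered on its own mean, varied little, from -0.04 in Ltbr-/- replicate 3 to 0.02 in Ly5.1 replicate 1 on the log2 scale. Each Ltbr-/- sample (0.002, -0.002 and -0.037) was below each Ly5.1 sample (0.018, 0.010 and 0.009). This separation was small and was not tested. Taken singly, 30.4% of all tested genes had groups without overlap, and 19.0% of those in the level range of the members. The mean of the tested Hoxb members overlapped between the groups (difference 0.03), while that of the Hoxa members was lower (-0.07). Hoxa3 (-0.17) and Hoxa7 (-0.15) had the differences farthest from 0. The genes whose log2 values followed the mean profile most closely over the 6 samples were Vcl, Smg5, Eltd1, Hnrnpul1 and Ctr9, with Pearson's r from 0.989 to 0.995. None of these 5 genes passed the test between the groups. They are the closest of 13099 genes over only 6 samples that share 2 groups, and the likeness is a description.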

How the data were processed

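RNA of 3 Ltbr-/- and 3 Ly5.1 samples was sequenced in single reads of 76 bases. Assembly (SeqMan NGen), quantification (ArrayStar) and the regularized log (Bioconductor) were done by the authors. Builds GRCm38 and mm10 and DESeq2 are named in the submitters' processing notes. The deposited value is a positive signal per gene, treated as 2 to the power of the regularized log, which was inferred from the values. Without read counts, sequencing depth per value is unknown. For repeated symbols the row with the highest mean was kept. The log2 of the deposited signal, with no pseudocount, was tested with limma 3.58.1 (R 4.3.3, trended eBayes) on the 13108 of 26216 names in the upper 50% by mean, a mean signal above 14.4, without a block. The code was checked on simulated data. Exact permutation tests were two-sided over 20 arrangements. The samples are described as biological replicates pooled from chimeras, and p-values measure the spread between these pools. The members and all gene lists (other Hox genes, TALE cofactors, chromatin and retinoid regulators, noncoding cluster genes, cell type markers) were chosen with earlier results of these data known. Named from each list were the genes past an adjusted p of 0.05, at most the 4 with the largest difference, or otherwise the 2 with the highest mean. Further genes (Pbx2, Pbx3, Pbx4, Men1, Kmt2a, Ezh2, Slamf1, Cd48, Cd79b, Ms4a1, Pax5, Hoxa4, Hoxb8, Hoxb9, Pknox1, Dntt, Mcpt8, Fcer1a, Ms4a2, Csf1r, Ly6c2, Prtn3, Ly6g) were named after their values were seen, as were the silent genes. Gene models and sequences came from GENCODE M21, and 3 noncoding genes found no match. Some genes and sequences are not reported here.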

Additional observations from a re-analysis of the deposited data

How the results depend on the processing

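Under 15 alternatives (another filter, centering, quantile normalization, log2(signal + 16), other eBayes settings, the mean of repeated rows, a replicate block and leaving out each sample), 0 members passed an adjusted p of 0.05 in either direction, and the lowest adjusted p was 0.0705. An adjusted p of 0.01 and a fold of 1.2 also gave 0. No member was in the upper 25% of names, so that filter gave no value for them. Of 126 alternative values of the 9 members, 120 kept their sign and side of the threshold. The other 6 changed sign on leaving out a sample, where the differences ranged from -0.0102 to 0.0926 for Hoxa5, from -0.0685 to 0.0058 for Hoxa10 and from -0.118 to 0.0883 for Hoxb3. The cause was not tested. With no filter, 0 TALE cofactor genes instead of 1 were lower. The labels share replicate numbers. Deviations of same-numbered samples correlated at 0.031, -0.005 and 0.09, beside -0.074 to 0.045 for samples of different numbers. Whether same-numbered samples came from the same recipients is not given in the sources used here, so whether they are paired is unknown. With the replicate block, 1936 genes were called, as without it, and the lowest adjusted p of a member was 0.185. Fewer genes were called at the signal level of the Hox genes than at higher levels, and the cause was not tested.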
